A study of Mus musculus with 6 samples.

Results

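The 39 genes described here form a module of the p53 tumor suppressor, its transcriptional targets, cell-cycle inhibitors and the apoptosis machinery. They were picked by symbol, by a rule that uses no measured value, and are 39 of the 18460 genes listed in at least 1 of 6 mouse breast tumors profiled by RNA sequencing. The genes and their roles were nevertheless chosen with earlier results of these data known. All 39 were listed and passed the filter on low counts, with at least 13 counts in every tumor. By role they fall into p53 and its inhibitor (2 genes), arrest and stress targets of p53 (11 genes), death targets of p53 (9 genes), other cyclin-dependent kinase (CDK) inhibitors and Rb (4 genes), the BCL-2 family (7 genes), and caspases with the apoptosome and inhibitor of apoptosis proteins (6 genes).

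The 3 test tumors came from K14-TSLPtg;PyMTtg;Rag1KO mice and the 3 control tumors from PyMTtg;Rag1KO mice, all of strain Balb/c. Every mouse in both groups received CD4+ T cells at 4 weeks of age, and tumors were collected at an endpoint of 18 to 20 weeks, each from a separate mouse. PyMTtg is the polyoma middle T oncogene under the MMTV promoter, which drives breast tumors, and Rag1KO removes the host's own T and B cells, so that, by the labels, the groups differ in the K14-TSLPtg transgene. It places the cytokine thymic stromal lymphopoietin under a keratin 14 promoter, which is active in basal cells of the epidermis and other stratified epithelia. The study asked how T cells stimulated by this cytokine act on the tumors, including whether the tumor cells die, stop dividing or carry more p53 and p21 protein.

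p53 is a transcription factor that is held at low level by the ubiquitin ligase MDM2 and accumulates after DNA damage, oncogene activity or other stress. Its targets fall into genes that halt the cell cycle, of which *Cdkn1a* (p21) is the classical one, genes that repair or buffer stress, and genes that commit the cell to death through death receptors at the surface or through BCL-2 proteins at the mitochondrion. Because p53 is regulated largely through the stability of its protein, mRNA of the gene itself and activity of the protein are separate quantities, and only mRNA was measured here.

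Levels are given as counts scaled to the size of each library (CPM) for one gene across tumors and as FPKM, which also divides by gene length, where genes are compared with each other. Differences are log2 fold changes of 3 test over 3 control tumors. Each was tested with edgeR's quasi-likelihood test on the expected counts, Benjamini-Hochberg adjusted over all 13706 genes tested. An exact two-sided permutation test over the 20 splits of the 6 tumors, which cannot give a p below 0.1, was added for single genes.

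Total expected counts ran from 8373390 to 9449565 per tumor. The tissue was labeled breast tumor, and all 5 luminal epithelial markers were detected in every tumor, with a summed level of 1590 to 3563 CPM in control and 4696 to 5036 CPM in test tumors. T cell markers were low although every host received T cells. The 4 listed of the 5 markers, *Cd3e*, *Cd3g*, *Cd4* and *Cd2*, summed to 2.38 to 4.69 CPM in control and 2.54 to 3.08 CPM in test tumors. *Cd3g* was at 0 in control tumor 3 and *Cd2* at 0 in control tumor 2. Control tumor 2 stood apart. Its correlation across all tested genes (log2 CPM) was 0.874 and 0.908 with control tumors 1 and 3 but 0.921, 0.927 and 0.935 with the test tumors, so results that rest on it are given with and without it. In whole tumor tissue, fewer cells of a type and less RNA per cell cannot be told apart.

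The DNA just upstream of the genes on which the comparison turned is shown here so that the classical p53 targets can be seen as sequence. These are the 250 bases before the RefSeq transcription start on GRCm38.p6, read 5′ to 3′ on the gene's own strand. *Cdkn1a* lies at chr17:29090979-29100722 and its window at chr17:29090729-29090978, plus strand. The window of *Gadd45a* (chr6:67035096-67037407) is chr6:67037408-67037657, minus strand, that of *Plk2* (chr13:110395044-110400844) is chr13:110394794-110395043, plus strand, and that of *Ccng1* covers chr11:40755287-40755536, minus strand, the gene being annotated at chr11:40748552-40755309 with a further start just inside the window. The other windows lie outside the annotated gene. Capitals mark matches on either strand to the p53 half-site consensus, the GC box (GGGCGG) or the CCAAT box (CCAAT).
Cdkn1a: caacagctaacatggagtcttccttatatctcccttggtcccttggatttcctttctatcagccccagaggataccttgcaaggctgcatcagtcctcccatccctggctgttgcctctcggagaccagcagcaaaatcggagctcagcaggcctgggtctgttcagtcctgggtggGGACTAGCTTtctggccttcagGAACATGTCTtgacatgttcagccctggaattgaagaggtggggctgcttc
Gadd45a: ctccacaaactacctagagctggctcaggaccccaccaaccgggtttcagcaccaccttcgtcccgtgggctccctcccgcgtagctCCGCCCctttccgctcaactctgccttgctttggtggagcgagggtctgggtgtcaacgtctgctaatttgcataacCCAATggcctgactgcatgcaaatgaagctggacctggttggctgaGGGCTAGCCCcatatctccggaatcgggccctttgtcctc
Plk2: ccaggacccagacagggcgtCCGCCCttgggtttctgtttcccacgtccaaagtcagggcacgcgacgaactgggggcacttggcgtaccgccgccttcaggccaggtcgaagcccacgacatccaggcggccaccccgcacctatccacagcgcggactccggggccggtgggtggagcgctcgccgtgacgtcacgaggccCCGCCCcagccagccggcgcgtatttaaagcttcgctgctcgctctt
Ccng1: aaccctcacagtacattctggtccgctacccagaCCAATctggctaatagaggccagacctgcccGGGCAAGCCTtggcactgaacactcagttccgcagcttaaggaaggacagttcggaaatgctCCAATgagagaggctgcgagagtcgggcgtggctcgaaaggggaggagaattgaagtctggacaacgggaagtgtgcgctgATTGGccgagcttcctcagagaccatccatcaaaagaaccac

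In the *Cdkn1a* window both marked stretches are p53 half-site matches, at 73 to 64 and 51 to 42 bases before the start. A second annotated *Cdkn1a* start, at 29093769 on chromosome 17, has GC boxes at 104 to 99 and 46 to 41 bases before it and no half-site match. *Gadd45a* holds a GC box at 163 to 158, a CCAAT box at 86 to 82 and a half-site match at 40 to 31 bases before the start. The *Ccng1* window has CCAAT boxes at 216 to 212, 123 to 119 and 42 to 38 bases and a half-site match at 185 to 176 bases, whereas only GC boxes, at 230 to 225 and 47 to 42 bases, were found for *Plk2*. A window of this kind was at hand for 33 of the 39 genes. Of these, 7 (21.2%) held a p53 half-site match, namely *Bax*, *Ccng1*, *Cdkn1a*, *Ei24*, *Gadd45a*, *Mdm2* and *Trp53*, beside 7.13% of the 32851 RefSeq windows of the same length. The GC box was present in 22 (66.7%) of the 33 and in 32.7% of all windows, the CCAAT box in 14 (42.4%) and 33.8%, and the TATA box (TATAAA) in 3 (9.09%) and 12.4%. The 33 are a single window per gene, whereas all windows include those of noncoding genes and further starts of the same gene. Their units are therefore unlike. The median GC content was 63.2% for the 33 and 52.4% for all, so these shares are descriptions of letters and not of binding.

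No gene of the module passed a false discovery rate of 0.05 between test and control tumors, and no gene of the whole transcriptome did either (0.0% of 13706), with a lowest adjusted p of 0.454 in the module and 0.394 overall. At an unadjusted p under 0.05, 3 of the 39 genes (7.69%) were reached, a share near the 8.41% of all tested genes. These 3, *Cdkn1a*, *Gadd45a* and *Plk2*, were all lower in test tumors, where 5.26% of all genes were lower at that level, and none was higher (3.15% of all genes). The fitted value was lower in test tumors for 26 of the 39 genes (66.7%) and for 48.5% of all genes, and the median log2 fold change was -0.25 for the module and 0.02 for all genes. Only *Ccng1* and *Gadd45a* had test tumors wholly separated from control tumors, 2 of 39 genes against 12.0% of all genes. In both the test tumors were below, as in 5.86% of all genes, and in no gene of the module were they above (6.12% of all genes).

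**Figure D1:**
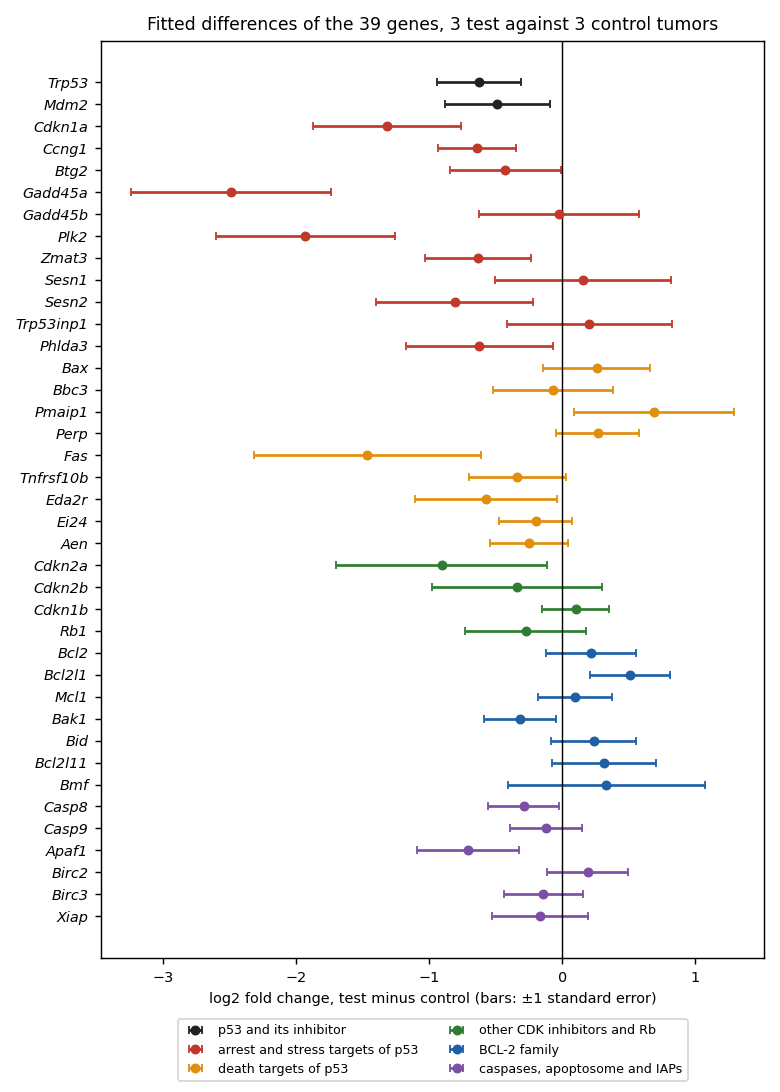
Log2 fold change of each of the 39 genes, test minus control (horizontal axis), with bars of 1 standard error from the edgeR fit on 3 test and 3 control tumors, colored by role. The lowest points are *Gadd45a* at -2.49, *Plk2* at -1.93, *Fas* at -1.46 and *Cdkn1a* at -1.32, and 6 of the 7 BCL-2 family genes lie to the right of 0.

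The fitted differences were not spread evenly over the roles. Lower fitted values were found for both of p53 and its inhibitor (median log2 fold change -0.56), for 9 of 11 arrest and stress targets (median -0.63) and for 6 of 9 death targets (median -0.20). Among the other CDK inhibitors and Rb, 3 of 4 were lower (median -0.31), as were 5 of 6 genes for caspases, the apoptosome and inhibitor of apoptosis proteins (median -0.16). The BCL-2 family differed in sign, with 1 of 7 genes lower and a median of 0.24. Among its higher values only that of *Bcl2l1* (0.51) was larger than its standard error (0.30). *Bax* (0.26), *Pmaip1* (0.69) and *Bbc3* (-0.07), of the same family, are counted here as death targets. Differences between roles were not tested.

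*Trp53*, which encodes p53 itself, was measured at 177, 176 and 135.5 CPM in control tumors 1, 2 and 3 and at 67, 138 and 112 CPM in test tumors 1, 2 and 3. All control tumors lay high, but test tumor 2 reached just above control tumor 3, so the groups overlapped. Means were 163 ± 23.5 CPM in control and 106 ± 35.9 CPM in test tumors (SD, n = 3), and the difference did not pass the test (log2 fold change -0.62, standard error 0.32, unadjusted p = 0.0854 and adjusted p = 0.664 by edgeR's quasi-likelihood test, exact permutation p = 0.2). Without test tumor 1 the log2 fold change was -0.38. *Mdm2*, the ubiquitin ligase that restrains p53 and is itself a p53 target, stood at 95.8, 38.9 and 96.1 CPM in the control tumors and at 63.9, 39.1 and 61.6 CPM in the test tumors. Control tumor 2 and test tumor 2 were alike and lowest, while control tumors 1 and 3 lay above every test tumor (log2 fold change -0.49, standard error 0.40, unadjusted p = 0.254 and adjusted p = 0.771 by edgeR's quasi-likelihood test).

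*Cdkn1a*, whose product p21 blocks the CDKs that drive entry into S phase, had the highest mean level of the module per gene length in both groups, 292 FPKM in control and 117 FPKM in test tumors. It led in 4 of the 6 tumors, but lay below *Ccng1* and *Trp53* in control tumor 2 (91.8, 109 and 102 FPKM) and below *Bax* and *Mcl1* in test tumor 2 (94.55, 118 and 94.99 FPKM). The control tumors held 586, 169.5 and 924 CPM and the test tumors 274, 189.9 and 211 CPM. Control tumors 1 and 3 stood far above the other 4 tumors, and control tumor 2 was the lowest of all 6, so the groups overlapped. Group means were 559.8 ± 378 CPM in control and 225 ± 43.7 CPM in test tumors (SD, n = 3). The log2 fold change was -1.32 (standard error 0.56, unadjusted p = 0.0478 and adjusted p = 0.586 by edgeR's quasi-likelihood test, exact permutation p = 0.4). It was -1.75 without control tumor 2 and -0.75 without control tumor 3, so its size rested on which control tumors were used. Relative to *Trp53* in the same tumor, the FPKM of *Cdkn1a* was 3.10, 0.898 and 6.36 times as high in control tumors 1 to 3 and 3.80, 1.29 and 1.75 times in test tumors 1 to 3, a ratio that overlapped between the groups.

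*Gadd45a*, a stress sensor that binds PCNA and slows cells in G2, was counted at 169.8, 22.4 and 35 CPM in control tumors and at 10.5, 17.5 and 12.5 CPM in test tumors. Every test tumor was below every control tumor, but control tumor 1 stood alone at the top of the scale. With means of 75.7 ± 81.7 CPM in control and 13.5 ± 3.58 CPM in test tumors (SD, n = 3), it had the lowest log2 fold change of the 39 genes (log2 fold change -2.49, standard error 0.75, unadjusted p = 0.0114 and adjusted p = 0.454 by edgeR's quasi-likelihood test, exact permutation p = 0.1). Leaving out control tumor 1 brought the log2 fold change to -1.09. DESeq2, run on the same counts, gave -2.49 with an adjusted p of 0.0227, the only gene of the module it called, where it called 2.29% of all genes.

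*Plk2*, a polo-like kinase induced by p53 and by serum that acts at centrosomes, read 466, 69.7 and 309.9 CPM in the control and 66.3, 42.2 and 113 CPM in the test tumors. The upper part of the range again belonged to control tumors 1 and 3, with control tumor 2 inside the range of the test tumors. Means were 282 ± 199.7 CPM in control and 74 ± 36.2 CPM in test tumors (SD, n = 3). The log2 fold change was -1.93 (standard error 0.67, unadjusted p = 0.022 and adjusted p = 0.491 by edgeR's quasi-likelihood test, exact permutation p = 0.2). The value became -1.36 without control tumor 1 and -2.39 without control tumor 2.

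*Ccng1*, which encodes cyclin G1, a p53 target that recruits a phosphatase to MDM2, differed by less but more evenly. Its control tumors held 428, 369.7 and 471 CPM and its test tumors 352, 198 and 265 CPM. All 3 test tumors were lower than all 3 control tumors, and no single tumor stood far from its group. Means were 423 ± 50.7 CPM in control and 272 ± 77.1 CPM in test tumors (SD, n = 3). The log2 fold change was -0.64 (standard error 0.30, unadjusted p = 0.0645 and adjusted p = 0.634 by edgeR's quasi-likelihood test, exact permutation p = 0.1), and it stayed between -0.87 and -0.45 when each tumor was left out in turn.

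**Figure D2:**
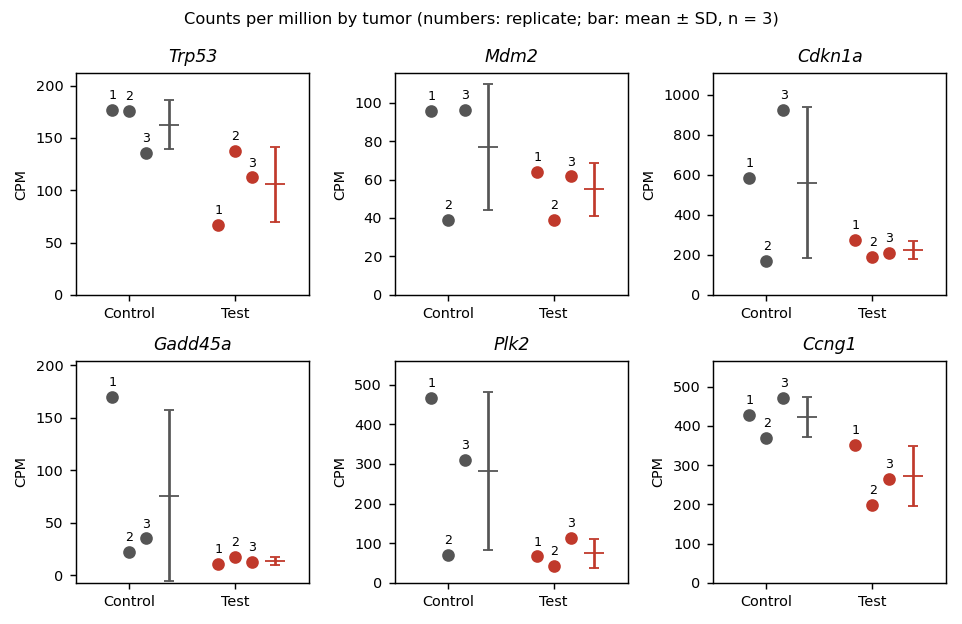
CPM (vertical axis, linear) of *Trp53*, *Mdm2*, *Cdkn1a*, *Gadd45a*, *Plk2* and *Ccng1* in each control (gray) and test (red) tumor, numbered by replicate, with the group mean and SD (n = 3) beside the points. Control tumor 2 sits with the test tumors for *Mdm2*, *Cdkn1a* and *Plk2*, and the control mean of *Gadd45a* is carried by control tumor 1 at 169.8 CPM.

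The other 7 arrest and stress targets had no unadjusted p under 0.05. Lower fitted values were seen for *Sesn2* (-0.81), a sestrin that restrains mTORC1, for *Zmat3* (-0.63), an RNA-binding zinc finger protein, for *Phlda3* (-0.62), which competes with AKT for membrane lipids, and for *Btg2* (-0.43), an antiproliferative gene. *Gadd45b* (-0.02) was close to 0. The stress genes *Trp53inp1* and *Sesn1* had positive fitted values (0.20 and 0.16) whose sign turned without test tumor 1, the highest of the 6 tumors in both. The sign also turned without control tumor 2, where the log2 fold changes were -0.08 and -0.17. *Trp53inp1* read 422, 120.0 and 86.3 CPM in test tumors 1 to 3, and its log2 fold change was -0.82 without test tumor 1. For *Sesn1* the test tumors held 47.6, 14.9 and 8.49 CPM, and the value without test tumor 1 was -0.86.

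Among the death targets, the receptor *Fas*, which triggers apoptosis when bound by its ligand, had the widest range of the 39 genes, 20.3-fold between the highest and the lowest tumor. It was read at 28, 3.89 and 21.5 CPM in control and 9.57, 8.42 and 1.38 CPM in test tumors. Control tumors 1 and 3 were highest and control tumor 2 lay within the test range, and the difference did not pass the test (log2 fold change -1.46, standard error 0.85, unadjusted p = 0.126 and adjusted p = 0.699 by edgeR's quasi-likelihood test). Its lowest value, in test tumor 3, rests on 13 counts, so counting error is large there. *Tnfrsf10b*, the death-domain receptor of the mouse for the ligand TRAIL, had the same control tumors highest, with 67.1, 28 and 63.6 CPM in control and 33.8, 47.5 and 44.5 CPM in test tumors (log2 fold change -0.34, standard error 0.37), control tumor 2 being the lowest of 6. *Eda2r*, a receptor of the same superfamily, had a fitted value of -0.57, *Aen*, an apoptosis-enhancing nuclease, one of -0.25, and *Ei24*, a protein of the endoplasmic reticulum, one of -0.20.

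The mitochondrial death targets and *Perp* shared only part of this order. Control tumor 2 was the lowest of the 6 tumors for *Bax*, *Bbc3*, *Pmaip1* and *Perp*. Control tumors 1 and 3 did not both exceed every test tumor in any of them. *Bax*, which permeabilizes the outer mitochondrial membrane, stood at 53.4, 39.5 and 77.7 CPM in control and 45, 106 and 53.8 CPM in test tumors, with test tumor 2 highest and the groups overlapping (log2 fold change 0.26, standard error 0.40). The BH3-only genes *Bbc3* (Puma) and *Pmaip1* (Noxa) had fitted values of -0.07 and 0.69, and *Perp*, which encodes a membrane protein of desmosomes and death signaling, one of 0.27. *Pmaip1* was the lowest of the 39 genes per gene length, with a mean of 1.67 FPKM, and its log2 fold change was 0.00 without test tumor 3.

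*Cdkn2a* and *Cdkn2b* are neighboring genes whose products p16 and p15 inhibit CDK4 and CDK6, and *Cdkn2a* also encodes ARF, which blocks MDM2. The deposited counts hold both *Cdkn2a* products under 1 gene, so they cannot be told apart. *Cdkn2a* was counted at 42.9, 4.22 and 69.2 CPM in control and at 22, 24.1 and 16 CPM in test tumors. Control tumor 3 was 16.4 times and control tumor 1 was 10.2 times as high as control tumor 2, whereas the test tumors lay close together between these extremes (log2 fold change -0.91, standard error 0.79, unadjusted p = 0.286 and adjusted p = 0.784 by edgeR's quasi-likelihood test). *Cdkn2b* showed the same arrangement, 15.5, 3.68 and 29.6 CPM in control and 13.3, 11.6 and 13.8 CPM in test tumors, where control tumor 3 was 8.06 times as high as control tumor 2 (log2 fold change -0.34, standard error 0.64). *Cdkn1b* (p27), another inhibitor of CDK2, and *Rb1*, the pocket protein that CDKs inactivate, had fitted values of 0.10 and -0.28, and the range of *Cdkn1b* over the 6 tumors was only 1.57-fold.

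In the BCL-2 family, the guardians that hold BAX and BAK in check were not lower in test tumors in the fitted values. *Bcl2l1*, which encodes BCL-XL, read 97.3, 102 and 113 CPM in the control and 209, 106 and 131 CPM in the test tumors. Test tumors 1 and 3 exceeded every control tumor and test tumor 2 lay within their range (log2 fold change 0.51, standard error 0.30, unadjusted p = 0.13 and adjusted p = 0.7 by edgeR's quasi-likelihood test), and the log2 fold change was 0.18 without test tumor 1. *Bcl2* itself was found at 72, 31.5 and 58.2 CPM and 74.7, 57.1 and 56.1 CPM in control and test tumors, control tumor 2 being lowest (log2 fold change 0.22, standard error 0.34). *Mcl1*, the short-lived guardian, reached 234, 271 and 287 CPM in control and 287, 352 and 209.9 CPM in test tumors with overlapping groups (log2 fold change 0.10, standard error 0.28).

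The effector *Bak1* was the only BCL-2 family gene of the 7 with a negative fitted value. Its control tumors held 210.0, 150.1 and 155 CPM and its test tumors 112, 133 and 168 CPM, with test tumor 3 inside the control range (log2 fold change -0.32, standard error 0.27). Of the BH3-only activators and sensitizers, *Bid* and *Bcl2l11* (Bim) had fitted values of 0.24 and 0.31. *Bmf*, a BH3-only gene tied to loss of cell attachment, had the opposite order, with 10.8, 85.7 and 20.4 CPM in control and 75.8, 43.3 and 28 CPM in test tumors. Here control tumor 2 was the highest of all 6 and control tumors 1 and 3 the lowest, so that the log2 fold change of 0.33 became 1.65 without control tumor 2. The ratio of *Bax* to *Bcl2* FPKM was 6.15, 10.3 and 11.1 in control tumors 1 to 3 and 5.01, 15.0 and 7.99 in test tumors 1 to 3, with no separation of the groups.

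Downstream of the mitochondrion, *Apaf1*, the scaffold of the apoptosome, had a fitted value of -0.71 (standard error 0.38), its initiator caspase *Casp9* one of -0.12, and the death receptor caspase *Casp8* one of -0.29. *Casp9* and *Casp8* had among the narrowest ranges of the 39 genes, 1.55-fold and 1.62-fold over the 6 tumors. The inhibitor of apoptosis genes also stayed within overlapping ranges. *Birc2* (cIAP1) read 20.5, 22.4 and 23.4 CPM in control and 32.3, 16.8 and 26.6 CPM in test tumors (log2 fold change 0.19, standard error 0.31). For its paralog *Birc3* (cIAP2) the values were 22.4, 18.9 and 18.4 CPM and 22.6, 13.3 and 18.2 CPM (log2 fold change -0.14, standard error 0.30). *Xiap*, which binds caspases directly, stood at 111, 74 and 119 CPM and 129.5, 55.3 and 86 CPM (log2 fold change -0.17, standard error 0.36). In all 3 of these genes the highest and the lowest of the 6 tumors were test tumors 1 and 2.

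**Figure D3:**
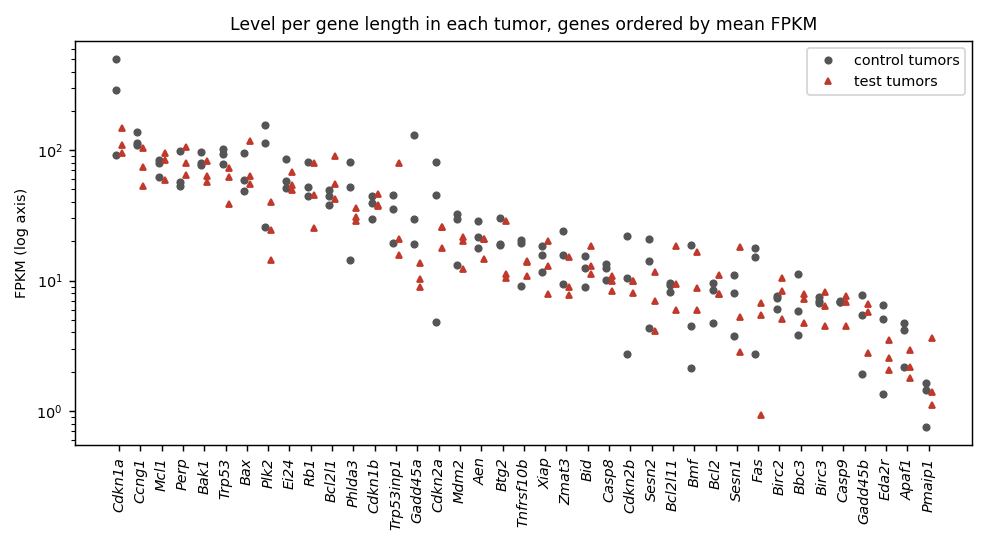
FPKM (vertical axis, logarithmic) of the 39 genes in each of the 3 control (circles) and 3 test (triangles) tumors, ordered along the horizontal axis by mean FPKM. The mean over the 6 tumors, 204.9 FPKM for *Cdkn1a* at the left end and 1.67 FPKM for *Pmaip1* at the right, pools both groups, and the control points of *Cdkn2a*, *Gadd45a* and *Fas* are spread widely.

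Per gene length, the order of mean levels differed between the groups. In control tumors *Cdkn1a* (292 FPKM) was followed by *Ccng1* (120.1), *Plk2* (98.1), *Trp53* (91.1) and *Bak1* (84.7), and in test tumors *Cdkn1a* (117 FPKM) was followed by *Perp* (83.1), *Mcl1* (79.55), *Bax* (78.9) and *Ccng1* (77.15). The lowest means were those of *Pmaip1*, *Apaf1* and *Eda2r* in both groups, at 1.28, 3.71 and 4.32 FPKM in control and 2.05, 2.30 and 2.70 FPKM in test tumors.

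The module had a larger median spread among control tumors than all tested genes did. The median SD of log2 CPM was 0.54 among the 3 control and 0.39 among the 3 test tumors for the 39 genes, against 0.35 and 0.45 for all tested genes, and the control SD was the larger in 22 of 39 genes (56.4%) against 40.1% of all genes. This spread followed control tumor 2, a pattern described here after its values were seen and therefore without a test. Control tumor 2 was the lowest of the 3 control tumors in 29 of 39 genes (74.4%, all genes 41.1%) and the lowest of all 6 tumors in 16 (41.0%, all genes 13.3%). Both other control tumors were at least 2-fold above it in 14 genes (35.9%, all genes 10.3%). Control tumors 1 and 3 lay above the other 4 tumors in 15 genes (38.5%, all genes 16.3%). These were *Mdm2*, *Cdkn1a*, *Ccng1*, *Gadd45a*, *Plk2*, *Zmat3*, *Sesn2*, *Phlda3*, *Fas*, *Tnfrsf10b*, *Eda2r*, *Aen*, *Cdkn2a*, *Cdkn2b* and *Apaf1*. The opposite order was found for *Bmf* alone (2.6%, all genes 13.3%).

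**Figure D4:**
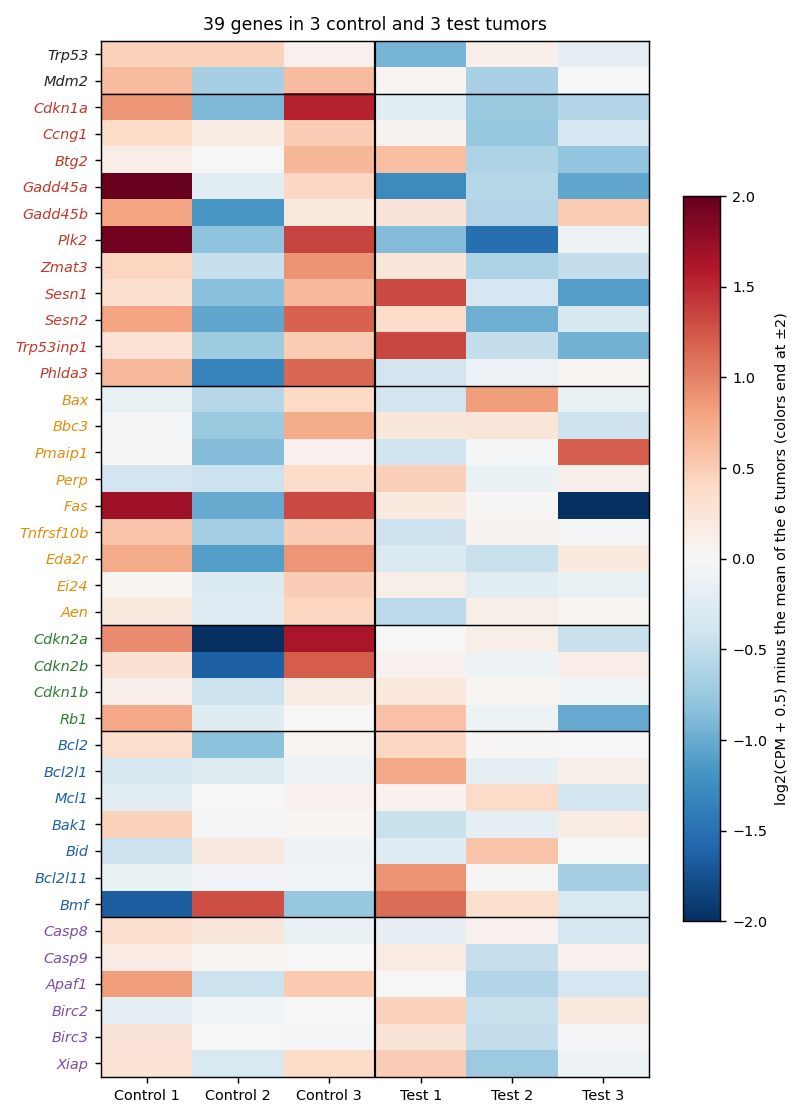
Log2 CPM of each of the 39 genes (rows, grouped by role) in the 6 tumors (columns), each row centered on its mean, with color giving the difference from that mean. Control tumors 1 and 3 are above and control tumor 2 below the row mean in most arrest and stress targets, whose median centered values are 0.65, -0.80 and 0.66 in control tumors 1 to 3 and 0.24, -0.62 and -0.48 in test tumors 1 to 3.

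The other roles are summarized in the same way. The median centered log2 CPM of the 4 other CDK inhibitors and Rb was 0.54, -1.04 and 0.68 in control tumors 1 to 3 and 0.15, -0.03 and -0.25 in test tumors 1 to 3. For the 9 death targets it was 0.04, -0.68 and 0.49 in control and -0.28, 0.02 and -0.02 in test tumors. *Trp53* and *Mdm2* together gave 0.55, -0.10 and 0.36 in control and -0.44, -0.27 and -0.10 in test tumors, and the 6 genes for caspases, the apoptosome and inhibitor of apoptosis proteins gave 0.27, -0.02 and 0.01 in control and 0.22, -0.47 and -0.07 in test tumors. The BCL-2 family did not have its lowest value in control tumor 2, with -0.20, -0.02 and -0.07 in control and 0.41, 0.02 and -0.003 in test tumors.

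Without control tumor 2, leaving 2 control and 3 test tumors, 12 of the 39 genes (30.8%) had an unadjusted p under 0.05, against 14.3% of all genes. Each tumor was left out in turn, but this fit is singled out after its values were seen. Control tumor 2 was the lowest control tumor in 29 of the 39 genes, so leaving it out raised their control mean. The counts given here restate that pattern and are not a separate test of it. The 11 lower in test tumors (all genes 9.06%) were *Mdm2*, *Cdkn1a*, *Gadd45a*, *Plk2*, *Zmat3*, *Sesn2*, *Phlda3*, *Fas*, *Eda2r*, *Cdkn2a* and *Apaf1*, and *Bmf* was the 1 that was higher (all genes 5.2%). None passed a false discovery rate of 0.05 (lowest adjusted p 0.0668 by edgeR's quasi-likelihood test), which 1.28% of all genes did in that fit. The median log2 fold change of the module was then -0.41, and the groups did not overlap in 16 genes, 15 of them with test tumors below, against 35.1% and 18.8% of all genes. These 15 are the same genes in which control tumors 1 and 3 lay above the other 4 tumors. Fitted values moved to -1.94 for *Fas*, -1.44 for *Cdkn2a*, -1.23 for *Sesn2* and -0.80 for *Mdm2*. Without control tumor 1, by contrast, 1 gene, *Gadd45a*, lower in test tumors, had an unadjusted p under 0.05 (all genes 2.59%).

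**Figure D5:**
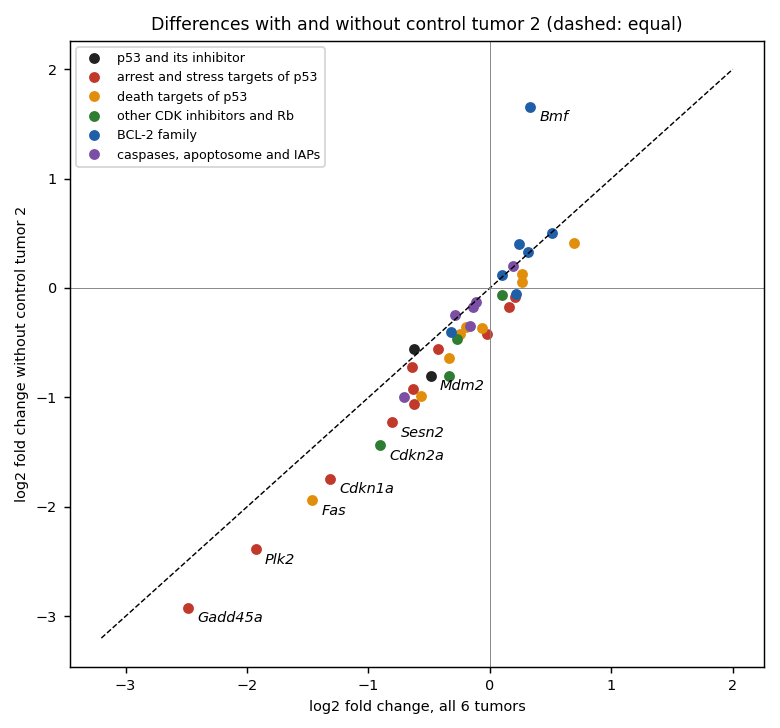
Log2 fold change of the 39 genes with all 6 tumors (horizontal axis) and without control tumor 2 (vertical axis), with the line of equal values. Of the 39 genes, most fall below the line, *Cdkn1a* moving from -1.32 to -1.75, while *Bmf* lies above it, moving from 0.33 to 1.65.

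Summed levels of cell type markers are given beside these values. All 5 luminal markers had higher fitted values in test tumors, with an unadjusted p under 0.05 for *Krt8*, *Krt18* and *Krt19*. By their sum, control tumor 2 at 3563 CPM was the control tumor nearest to the test tumors. This did not hold for *Krt19*, at 236, 142 and 138 CPM in control tumors 1 to 3 and 604, 868 and 343 CPM in test tumors 1 to 3. The 5 leukocyte markers all had lower fitted values, with an unadjusted p under 0.05 for *Itgam*, summing to 401, 350.2 and 667 CPM in control tumors 1 to 3 and to 231, 459 and 248 CPM in test tumors 1 to 3, and their groups overlapped. The 5 basal markers summed to 712.5, 369.7 and 2326 CPM in control and 819, 622 and 494 CPM in test tumors. Single genes carried much of this, *Acta2* with 1705 CPM in control tumor 3 and *Trp63* with 371 CPM in control tumor 1. Fitted values were lower for 4 of the 5, with an unadjusted p under 0.05 for *Trp63*, and higher for *Krt14* (0.68). The 6 skeletal muscle markers were at 7.29, 173 and 5.01 CPM in control and 891, 156 and 96.4 CPM in test tumors, so that control tumor 2 lay with the test tumors, and *Ckm* was at 0 in control tumor 1. All 6 had higher fitted values, with an unadjusted p under 0.05 for *Pvalb*. Endothelial markers ranged from 81.8 to 115 CPM in control and 87.8 to 117 CPM in test tumors, fibroblast markers from 559 to 2232 and 902 to 3600 CPM, adipocyte markers from 0.231 to 2.81 and 0.637 to 88.8 CPM, and epidermal markers from 1.73 to 3.36 and 2.08 to 13.4 CPM. Of these only *Adipoq*, which was higher, had an unadjusted p under 0.05. The part of any of these in the values of the module was not tested.

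Further genes of the pathway, outside the 39, were taken from lists of the same kind. Of 13 regulators of p53, 6 had higher and 7 lower fitted values, and 1 had an unadjusted p under 0.05 (8.41% of all genes). This was *Trp63*, the p53 relative that marks basal epithelium, with 371, 16 and 58.5 CPM in control and 23.4, 6.47 and 20.4 CPM in test tumors. Control tumor 1 stood far above the rest, and the groups overlapped (log2 fold change -3.15, standard error 1.09, unadjusted p = 0.0214 and adjusted p = 0.491 by edgeR's quasi-likelihood test). The groups did not overlap in 3 of the 13 (12.0% of all genes), none of which had an unadjusted p under 0.05. *Atr*, a kinase activated at stalled replication forks, was at 58.2, 33.1 and 30.9 CPM in control and 30.3, 14.7 and 27.6 CPM in test tumors, and *Trp53bp1*, which directs repair of DNA breaks, at 101, 88.9 and 88.9 CPM and 64.5, 51.4 and 79.8 CPM. Both had all test tumors below, whereas *Kat5*, an acetyltransferase of p53 and ATM, had them above, at 33, 35 and 35.5 CPM in control and 41.9, 43.5 and 36.6 CPM in test tumors. The damage kinases *Atm* and *Atr* had fitted values of -0.36 and -0.75, the checkpoint kinases *Chek1* and *Chek2* -0.13 and 0.30, and the second p53 inhibitor *Mdm4* -0.28.

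Of 16 further p53 targets, 5 were higher and 11 lower in fitted value. An unadjusted p under 0.05 was reached by 1 in each direction (3.15% of all genes higher, 5.26% lower). The groups did not overlap in *Sat1* (test above, as in 6.12% of all genes) and *Gtse1* (test below, as in 5.86% of all genes, log2 fold change -0.62). *Sat1*, the enzyme that acetylates polyamines for breakdown, was counted at 70.6, 104 and 79.4 CPM in control and 229.9, 204 and 285 CPM in test tumors. Every test tumor was above every control tumor, including control tumor 2, although the adjusted value did not pass (log2 fold change 1.50, standard error 0.27, unadjusted p = 0.000611 and adjusted p = 0.394 by edgeR's quasi-likelihood test). *Abhd4*, a lipid hydrolase, went the other way, with 172, 118 and 194 CPM in control and 126, 73.1 and 86.4 CPM in test tumors, test tumor 1 lying within the control range (log2 fold change -0.76, standard error 0.31, unadjusted p = 0.041 and adjusted p = 0.558 by edgeR's quasi-likelihood test).

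Of 24 further apoptosis genes, 22 passed the filter on low counts, 16 with higher and 6 with lower fitted values. Only *Bok*, a BCL-2 effector, had an unadjusted p under 0.05 (8.41% of all genes). It was at 1.62, 1.08 and 3.2 CPM in control and 5.07, 8.3 and 4.46 CPM in test tumors, all test tumors being higher (log2 fold change 1.59, standard error 0.56, unadjusted p = 0.0231 and adjusted p = 0.495 by edgeR's quasi-likelihood test). *Fasl*, the ligand of *Fas*, was at 0 in 5 of 6 tumors and was not tested, as was *Hrk*.

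Neither remaining list had a gene with an unadjusted p under 0.05 (8.41% of all genes). Of 6 further CDK inhibitors and Rb family genes, 2 were higher and 4 lower in fitted value, the lowest being *Cdkn1c* (p57) at -1.37. Of 10 proliferation genes, 7 were higher and 3 lower. *Mki67*, the Ki67 antigen of dividing cells, read 283, 573 and 348 CPM in control and 308, 353 and 454 CPM in test tumors. Control tumor 2 was highest and the groups overlapped (log2 fold change -0.11, standard error 0.34). It was also highest for *Top2a* and *Mcm2*, but not for the other 7, 5 of which (*Ccnb1*, *Ccna2*, *Cdk1*, *Pcna* and *Ccne1*) were highest in test tumor 2.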

How the data were processed

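Tumor RNA was sequenced in 6 libraries, 3 per group, on an Illumina platform. The authors deposited for each gene an expected count, an estimate that is not normalized, and an FPKM value, normalized for gene length and depth. The submitters' processing notes name Bowtie, BWA, RSEM and mm10, with no versions, and reads shared between genes may be split by estimation, as the fractional counts of *Mdm2*, *Zmat3*, *Bbc3*, *Pmaip1*, *Tnfrsf10b*, *Bcl2*, *Bcl2l11*, *Casp8*, *Birc2* and *Birc3* show. Genes not listed for a tumor were set to 0. Gene identifiers were matched to RefSeq (18400 of 18460 by identifier, 13 by transcript), which also gave positions and promoter windows on GRCm38.p6.

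Counts were rounded and fitted in R 4.3.3 with edgeR 4.0.16 (filterByExpr, TMM, quasi-likelihood test, no covariates), and Benjamini-Hochberg adjusted over 13706 genes. CPM used TMM library sizes. Alternatives were DESeq2 1.42.0, RLE scaling, no filter, at least 10 counts in every tumor, limma 3.58.1 on log2 FPKM with a pseudocount of 1 or 0.1 (mean FPKM at least 1), a replicate block and leaving out each tumor. The permutation test used means of log2(CPM + 0.5). The depth of 8373390 to 9449565 counts limits counting error only. The study names several tests without saying which it used for these tumors, so a count test on the spread between tumors was used.

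The 39 genes, their roles and the other lists were chosen with earlier results of these data known. Values in every tumor were given for *Trp53*, *Cdkn1a* and *Mdm2*, for genes with an unadjusted p under 0.05 or groups that did not overlap, and for paralogs or partners. Values of *Bmf*, *Trp53inp1*, *Sesn1* and of the genes outside the 39 were added after they were seen.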

Additional observations from a re-analysis of the deposited data

How the results depend on the processing

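The module's median log2 fold change, and the values of *Trp53* and *Cdkn1a*, kept their sign under every alternative run. DESeq2 called 1 gene of the module (*Gadd45a*) where edgeR called 0 (3 at an unadjusted p under 0.05). When each tumor was left out in turn, the number of genes lower in test tumors at an unadjusted p under 0.05 ran from 1 (without control tumor 1) to 11 (without control tumor 2), that of genes higher from 0 to 1, and the genes whose groups did not overlap, an alternative added after the data were seen, from 2 to 16 (16 without control tumor 2). The shares of all genes moved as well, to 2.59% lower without control tumor 1 and 9.06% without control tumor 2, and to between 15.4% and 35.1% with groups that did not overlap (12.0% with all tumors). The median ran from -0.41 to -0.12.

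A fit with the replicate number as a block gave 0 calls and 2 genes with an unadjusted p under 0.05, *Ccng1* and *Plk2*, where 7.7% of all genes had one. Same-numbered tumors came from separate mice and their deviations correlated at -0.025, 0.12 and -0.14, with 2 of 6 tumors closest to their own number, so the numbers were not used to pair them.

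Signs turned in 5 genes under the FPKM scale with pseudocounts of 1 and 0.1 and under the replicate block, in that order. Log2 fold changes were 0.084, 0.127 and 0.13 for *Gadd45b*, -0.059, -0.096 and -0.044 for *Sesn1*, -0.062, -0.071 and -0.044 for *Trp53inp1*, 0.014, 0.027 and 0.044 for *Bbc3*, and 0.035, 0.091 and 0.058 for *Cdkn2b*.

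Leaving out single tumors gave both signs for these genes, as lowest to highest log2 fold change: *Gadd45b* -0.418 to 0.497, *Sesn1* -0.862 to 0.572, *Trp53inp1* -0.819 to 0.588, *Bax* -0.197 to 0.547, *Bbc3* -0.366 to 0.413, *Ei24* -0.361 to 0.025, *Cdkn2b* -0.807 to 0.422, *Cdkn1b* -0.061 to 0.199, *Rb1* -0.722 to 0.080, *Bcl2* -0.053 to 0.478, *Mcl1* -0.088 to 0.287, *Bid* -0.033 to 0.405, *Bcl2l11* -0.200 to 0.625, *Bmf* -0.130 to 1.654, *Casp9* -0.238 to 0.055, *Birc2* -0.023 to 0.416, *Birc3* -0.336 to 0.036, *Xiap* -0.518 to 0.091. The cause was not tested. Of the recomputed values of single genes other than *Trp53* and *Cdkn1a*, 441 kept their direction and side of the threshold, 39 changed sign and 1 (*Gadd45a* by DESeq2) passed it. Depth limits most the genes of few counts, such as *Pmaip1* and *Fas*.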
